A study of Homo sapiens with 4 samples.

Results

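The Polycomb group genes examined here were EZH1, EZH2, SUZ12, EED, BMI1, RING1, RNF2, CBX2, CBX7 and CBX8. They were looked up by gene symbol in the peak lists of 4 ChIP-seq samples, and 9 of the 10 are among the 18576 symbols that occur in any of the lists, RING1 being the exception. Chromatin was precipitated with an antibody to WDR5 or to H3K4me3 from RS4;11, a B-cell precursor acute lymphoblastic leukemia line, and from THP-1, a monocytic acute myeloid leukemia line. Both lines were cultured without a treatment, and both carry a rearranged MLL gene. There was 1 sample for each antibody and line, so differences between the lines have no replicate error and are described without a test, and any difference between the lines cannot be told apart from a difference between the libraries. The WDR5 sample of THP-1 and the H3K4me3 sample of RS4;11 are labelled with the other type of leukemia, and the line name was followed.

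Polycomb proteins work in a pair of complexes. In Polycomb repressive complex 2 (PRC2), EZH1 or EZH2 methylates lysine 27 of histone H3, and EED and SUZ12 hold the enzyme in its active form. In Polycomb repressive complex 1 (PRC1), RING1 or RNF2 ubiquitinates histone H2A with a partner such as BMI1, and the CBX proteins bind the mark that PRC2 leaves. H3K4me3 marks active promoters and is written by the MLL and SET1 complexes, of which WDR5 is a shared subunit. The genes described here encode the repressor complexes that oppose the MLL and SET1 complexes in gene control. EZH2 and BMI1 are well known for their part in the self-renewal of blood and leukemia cells.

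The lists hold 24212 distinct H3K4me3 peaks in RS4;11 and 26523 in THP-1 cells, against 703 and 225 WDR5 peaks. Each peak is given by position alone, with flags that say whether it lies in an exon or intron of a transcript or within 20 kb of either end, so its height and the sequencing depth are unknown. No H3K4me3 peak is wider than 4478 bp in RS4;11 cells or 4446 bp in THP-1 cells, although 465 and 277 peaks are between 4000 and 4499 bp wide. Of 8 widely expressed genes, chosen after their values were seen, only HPRT1 and RPLP0 had a peak at the start site in either line, while ACTB, GAPDH, B2M, EEF1A1, TBP and POLR2A had none. A gene without a peak in these lists is therefore described as without a listed peak, which does not show that the mark was absent. Of 6 monocytic markers, 4 (CD14, LYZ, CSF1R and ITGAM) had a start-site peak in THP-1 cells and 2 in RS4;11 cells. Of 5 B-lineage markers, CD79A and CD79B had one in RS4;11 cells, and CD79B, PAX5 and EBF1 in THP-1 cells.

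Most of the Polycomb group genes carried H3K4me3 at their start site in both lines, and no WDR5 peak was assigned to any of them. A start-site peak is one that reaches within 500 bp of the start of the canonical transcript. In RS4;11 cells 8 of the 10 genes had such a peak, where 50.6% of 20163 protein-coding genes did. In THP-1 cells 7 of the 10 had one, where 58.0% of all genes did. The 7 genes EZH1, EZH2, EED, RNF2, CBX2, CBX7 and CBX8 had one in both lines, as did 45.3% of all genes. SUZ12 was the 1 member with a start-site peak in RS4;11 cells only, a pattern found for 5.28% of all genes. BMI1 and RING1 had none in either line, as did 36.8% of all genes, although in THP-1 cells a peak lay at another protein-coding start of BMI1. With 10 genes, these shares are a description of the members and not a test of them as a group.

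**Figure D1:**
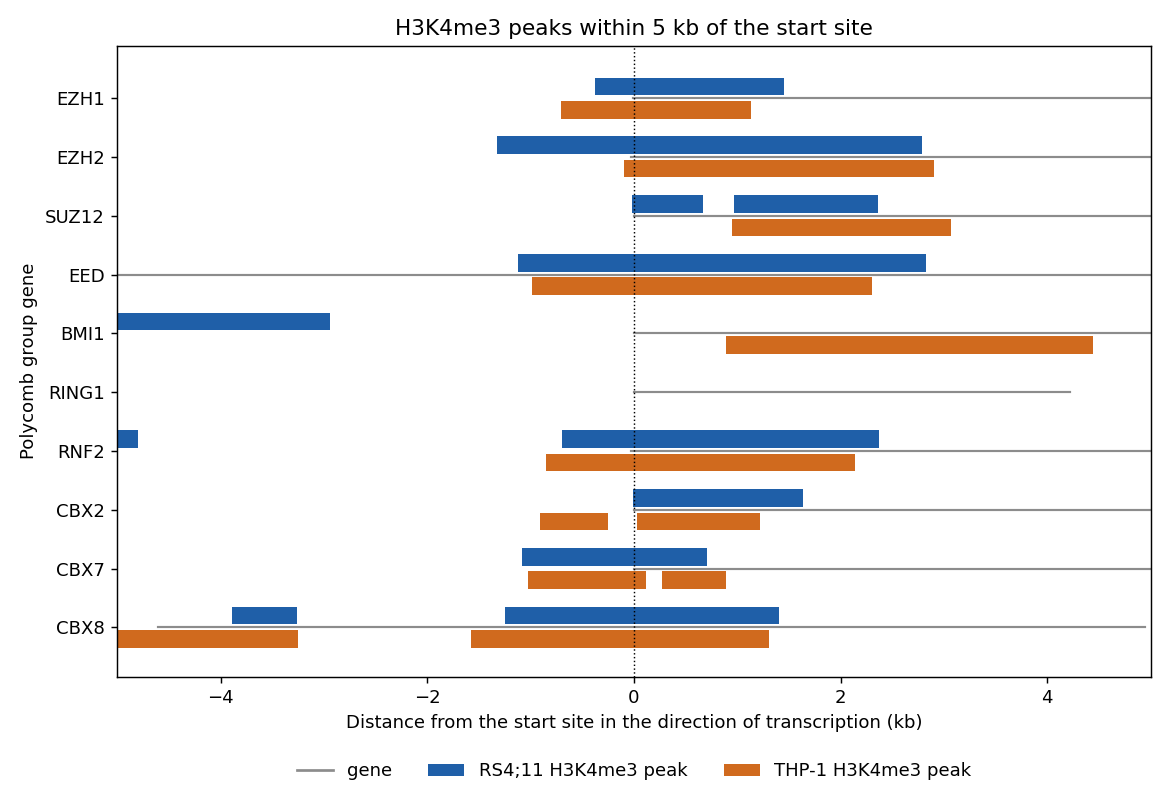
H3K4me3 peaks within 5 kb of the start site of each gene, with distance in kb along the direction of transcription. Blue bars are RS4;11 peaks, orange bars are THP-1 peaks and the grey line is the annotated gene. EZH1, EZH2, EED, RNF2 and CBX8 have 1 peak across the start site in each line, the SUZ12 and BMI1 peaks of THP-1 cells begin 952 and 887 bp downstream of it, and RING1 has no peak.

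The start-site peaks ranged from narrow ones at SUZ12, CBX2 and CBX7 to wide ones at EZH2 and EED. Their median width was 2241.5 bp in RS4;11 cells (8 genes, 690 to 4111 bp) and 2880 bp in THP-1 cells (7 genes, 1145 to 3296 bp). Over all genes with a start-site peak the median was 2582 bp (quartiles 2024 and 3186 bp) in RS4;11 cells and 2359 bp (quartiles 1725 and 2996 bp) in THP-1 cells. Over the 7 genes with a peak in both lines the medians were 2654 and 2880 bp, and the peak was wider in RS4;11 cells at 5 (EZH2, EED, RNF2, CBX2 and CBX7) and in THP-1 cells at 2 (EZH1 and CBX8). Among these 7, only CBX7 differed by at least 1.5 times, being wider in RS4;11 cells, and 11.1% of the 9132 genes with a peak in both lines differed in that direction. None of the 7 was at least 1.5 times wider in THP-1 cells, as 5.83% of all such genes were. The narrow widths of SUZ12 in RS4;11 cells and of CBX2 and CBX7 in THP-1 cells rest on a short gap to a neighbouring peak and are also given with those peaks joined. With peaks closer than 500 bp joined, the order of the lines turned at CBX2 and CBX7. The peak was then wider in RS4;11 cells at EZH2, EED and RNF2, and in THP-1 cells at EZH1, CBX2, CBX7 and CBX8. At EZH1 the widths were nearly equal, 1829 and 1836 bp.

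**Figure D2:**
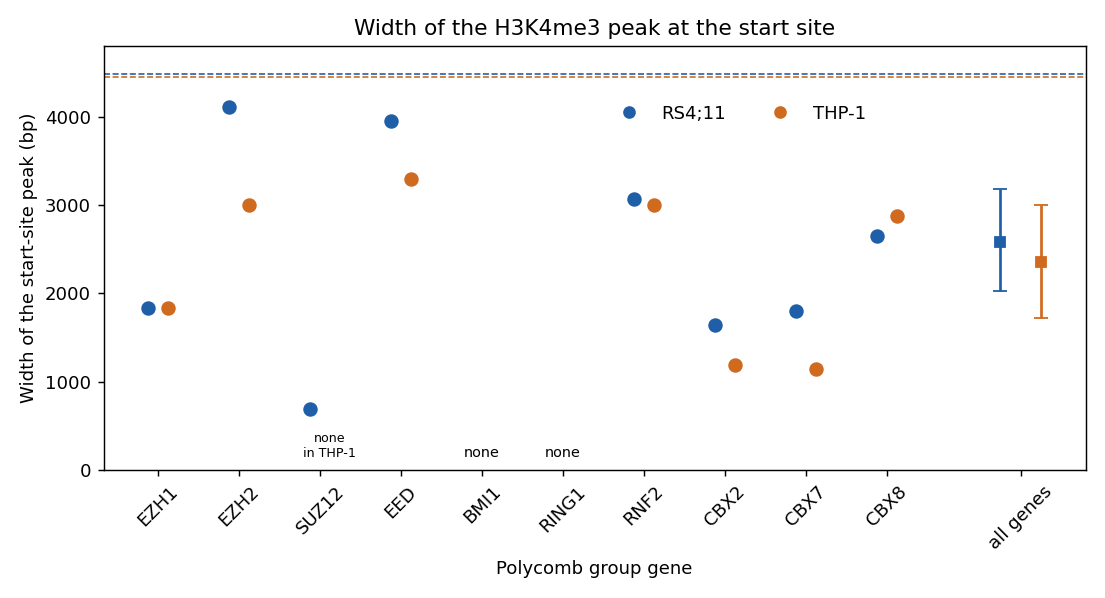
Width in bp of the H3K4me3 peak at the start site of each gene, with RS4;11 in blue and THP-1 in orange. Squares with bars are the median and quartiles over all protein-coding genes with such a peak, and the dashed lines are the widest peaks listed, 4478 and 4446 bp. EZH2 and EED lie above the upper quartile in both lines, and CBX2 and CBX7 lie below the lower quartile in both.

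Of the PRC2 genes, EZH2 had the widest start-site peak of the members in RS4;11 cells. EZH2 encodes the methyltransferase of proliferating cells and lies on the minus strand at chr7:148504349-148581413 (hg19, which is GRCh37). In RS4;11 cells its peak at chr7:148578598-148582708 was 4111 bp wide, in a list that holds no peak over 4478 bp. It was wider than 96.8% of the start-site peaks listed for that line. In THP-1 cells the peak at chr7:148578474-148581475 was 3002 bp wide, wider than 75.1% of those listed for THP-1. The peaks of both lines ended at nearly the same place inside the gene, 2785 and 2909 bp downstream of the start site, and differed on the other side, where the RS4;11 peak reached 1325 bp upstream and the THP-1 peak 92 bp. The extra width in RS4;11 cells thus lay upstream of the start site. RS4;11 cells had 2 further narrow peaks within EZH2 without a counterpart in THP-1 cells, 1 of 688 bp in intron 1 at chr7:148556617-148557304 and 1 of 663 bp over exons 2 and 3 at chr7:148543633-148544295.

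EED, the subunit that reads methylated lysine 27, had the widest start-site peak of the members in THP-1 cells. The gene lies on the plus strand at chr11:85912254-85989855 with its canonical start inside that interval. Its peak was 3946 bp wide in RS4;11 cells (chr11:85954673-85958618, wider than 94.2% of start-site peaks) and 3296 bp in THP-1 cells (chr11:85954808-85958103, wider than 83.7%). The THP-1 peak lay wholly within the RS4;11 peak. A further peak of 734 bp ending 13372 bp upstream of the start site, at chr11:85941690-85942423 and so inside the annotated gene, was listed in RS4;11 cells only.

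The promoters of these 2 genes are shown because they hold the widest peaks and yet differ in base composition. They run from 250 bases before the start site to 30 bases from it on, in the GRCh37 reference, 5′ to 3′ on the gene's own strand, and CpG dinucleotides are in capitals. The EZH2 promoter (chr7:148581354-148581633, minus strand) is 75.0% GC with 45 CpGs, and the EED promoter (chr11:85955545-85955824, plus strand) is 51.8% GC with 13.
EZH2 promoter: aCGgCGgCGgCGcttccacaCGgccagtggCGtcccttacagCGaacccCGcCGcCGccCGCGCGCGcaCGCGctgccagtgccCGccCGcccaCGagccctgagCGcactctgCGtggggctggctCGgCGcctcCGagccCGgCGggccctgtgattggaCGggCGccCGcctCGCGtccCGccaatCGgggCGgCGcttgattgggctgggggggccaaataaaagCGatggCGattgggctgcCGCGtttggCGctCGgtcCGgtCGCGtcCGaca
EED promoter: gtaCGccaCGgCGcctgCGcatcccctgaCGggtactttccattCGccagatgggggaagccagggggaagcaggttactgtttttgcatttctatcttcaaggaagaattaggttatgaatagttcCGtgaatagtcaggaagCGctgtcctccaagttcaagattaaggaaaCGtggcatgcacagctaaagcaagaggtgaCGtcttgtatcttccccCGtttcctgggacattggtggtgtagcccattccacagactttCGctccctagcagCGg

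EZH1, the paralog of EZH2 that is known from non-dividing cells, had start-site peaks of nearly equal width in both lines. The gene lies on the minus strand at chr17:40852293-40897067. The peak was 1829 bp wide in RS4;11 cells (chr17:40895609-40897437) and 1836 bp in THP-1 cells (chr17:40895927-40897762), narrower than the median in both lines. Its place differed slightly, reaching 379 bp upstream of the start site in RS4;11 and 704 bp in THP-1 cells. The remaining EZH1 peaks lay at the start sites of neighbours. The peak downstream of the gene lay at the start sites of CCR10 and CNTNAP1 in both lines (chr17:40833716-40835562 in RS4;11 cells), and the upstream peak lay at the start site of RAMP2 (chr17:40912941-40913576).

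SUZ12, the scaffold subunit of PRC2, had the narrowest start-site peak of the members in RS4;11 and none in THP-1 cells. The gene lies on the plus strand at chr17:30264026-30328057. In RS4;11 cells a peak of 690 bp (chr17:30264004-30264693, wider than 1.84% of start-site peaks) began 22 bp upstream of the start site, and a further peak of 1401 bp followed in intron 1 (chr17:30264990-30266390). In THP-1 cells a single peak of 2119 bp in intron 1 (chr17:30264978-30267096) contained all of that intronic peak, and no peak was listed over the 13237 bp before it. Both lines therefore had an H3K4me3 peak within 1000 bp of the SUZ12 start site, and the window of 500 bp decided the call. With peaks closer than 500 bp joined, the RS4;11 peak was 2387 bp wide and no longer the narrowest of the members.

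The SUZ12 promoter and the stretch between the RS4;11 peaks are shown because the lists change there over a short distance. Capitals again mark CpG dinucleotides in GRCh37. The promoter (chr17:30263776-30264055, plus strand) is 72.9% GC with 37 CpGs. The 296 bp between the peaks (chr17:30264694-30264989) lie in intron 1 and are 54.7% GC with 12 CpGs, while the first RS4;11 peak is 69.3% GC and the second 34.8%.
SUZ12 promoter: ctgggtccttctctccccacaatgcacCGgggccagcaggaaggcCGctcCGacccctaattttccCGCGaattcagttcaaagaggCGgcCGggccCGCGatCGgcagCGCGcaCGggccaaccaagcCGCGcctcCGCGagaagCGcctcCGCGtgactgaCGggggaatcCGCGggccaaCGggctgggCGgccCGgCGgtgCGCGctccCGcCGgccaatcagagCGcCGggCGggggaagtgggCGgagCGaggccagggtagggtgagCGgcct
SUZ12 between the RS4;11 peaks: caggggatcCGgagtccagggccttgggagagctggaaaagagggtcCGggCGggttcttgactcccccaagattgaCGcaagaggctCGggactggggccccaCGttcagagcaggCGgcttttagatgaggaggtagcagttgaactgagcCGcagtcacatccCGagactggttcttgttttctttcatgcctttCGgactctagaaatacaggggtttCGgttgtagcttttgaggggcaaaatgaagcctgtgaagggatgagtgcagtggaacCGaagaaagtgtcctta

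SUZ12 differed between the lines away from the start site as well. A peak of 1841 bp ending 12286 bp upstream of the start site (chr17:30249900-30251740) was listed in THP-1 cells only, and a peak of 600 bp downstream of the gene (chr17:30343014-30343613) in RS4;11 cells only. A wide downstream peak at the start of LRRC37B was present in both lines, 2781 bp in RS4;11 and 2936 bp in THP-1 cells.

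Of the PRC1 genes, RNF2, the main ubiquitin ligase of PRC1, had a start-site peak of 3069 bp in RS4;11 cells (chr1:185013995-185017063) and 2999 bp in THP-1 cells (chr1:185013835-185016833), a ratio of 1.02. The gene lies on the plus strand at chr1:185014658-185071735. A peak in its intron 1, 12591 and 12769 bp from the start site at its near edge, was also shared, 1191 bp wide in RS4;11 cells (chr1:185027281-185028471) and 964 bp in THP-1 cells (chr1:185027459-185028422). THP-1 cells had 2 more narrow peaks in intron 1, of 482 and 686 bp, and RS4;11 cells 1 upstream peak of 624 bp.

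RING1, the paralog of RNF2 in the same role, had no line in any of the 4 lists. The gene lies on the plus strand at chr6:33176277-33180499, in the major histocompatibility complex region. Its nearest H3K4me3 peak was 217654 bp away in RS4;11 cells and 217633 bp away in THP-1 cells. RING1 was 1 of 35 protein-coding genes whose start sites lay in a stretch of 0.76 Mb without a peak in either list. That stretch ran from chr6:32635064 to chr6:33393931 in RS4;11 cells and from chr6:32634960 to chr6:33393910 in THP-1 cells. Within 1 Mb (1000000 bp) of the RING1 start site, 6 of 51 genes (11.8%) had a start-site peak in RS4;11 and 8 (15.7%) in THP-1 cells, against 42.8% and 50.3% of the 1048 genes of chromosome 6. The lists also place 27 and 19 peaks on alternative haplotype sequences of chromosome 6, and only uniquely aligned reads were kept. The part of these haplotypes in the gap around RING1 was not tested.

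BMI1, the RING partner that raises the activity of RNF2, was the member with the least overlap between the lines. The gene lies on the plus strand at chr10:22610028-22620413, downstream of COMMD3, with which it forms an annotated read-through transcript. In RS4;11 cells no peak touched BMI1, since the stretch without a listed peak ran over 14331 bp and held the whole gene. The nearest RS4;11 peak, 3004 bp wide at chr10:22604087-22607090, lay at the start of COMMD3, 2938 bp upstream of the BMI1 start site. In THP-1 cells that COMMD3 peak was not listed, and a peak of 3560 bp in intron 1 of BMI1 (chr10:22610915-22614474) began 887 bp downstream of the start site. That peak covered a further protein-coding start of BMI1, 1007 bp downstream of the canonical one, and ended 112 bp before another. The upstream THP-1 peak lay farther out, at chr10:22598431-22601074. Downstream, the lines shared only an overlap of 1018 bp near SPAG6, between chr10:22632624-22633776 in RS4;11 and chr10:22632759-22635290 in THP-1 cells. Of the bases covered by BMI1 peaks in either line, 6.45% were covered in both, where the other 8 genes with peaks ranged from 50.9% (CBX2 and CBX8) to 79.2% (CBX7). Whether the bare start site of BMI1 comes from the limits of the lists described for the widely expressed genes was not tested.

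The BMI1 promoter is shown because its start site is GC-rich and without a start-site peak, and it was chosen after its values were seen. It lies at chr10:22609778-22610057 on the plus strand of GRCh37, is 73.9% GC and holds 36 CpGs, in capitals.
BMI1 promoter: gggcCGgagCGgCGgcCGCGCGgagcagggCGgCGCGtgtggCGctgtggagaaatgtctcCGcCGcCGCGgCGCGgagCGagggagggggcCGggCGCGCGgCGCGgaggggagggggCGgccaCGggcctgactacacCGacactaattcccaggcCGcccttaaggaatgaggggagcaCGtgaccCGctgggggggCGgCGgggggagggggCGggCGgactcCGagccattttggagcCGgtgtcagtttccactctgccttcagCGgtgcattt

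CBX2 and CBX8 are neighbours on chromosome 17, and the lists assign every one of their peaks to both genes, 3 of 3 in RS4;11 and 5 of 5 in THP-1. CBX2 lies on the plus strand at chr17:77751947-77761782 and CBX8 on the minus strand at chr17:77765931-77775482, with start sites 18929 bp apart. Both encode chromodomain proteins that read the mark of PRC2. At CBX8 the start-site peak was 2654 bp wide in RS4;11 cells (chr17:77769473-77772126) and 2880 bp in THP-1 cells (chr17:77769571-77772450), a THP-1 to RS4;11 ratio of 1.09. At CBX2 the peak was narrower, 1642 bp in RS4;11 cells (chr17:77751938-77753579) and 1184 bp in THP-1 cells (chr17:77751980-77753163).

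The CBX2 start site lay just outside the THP-1 peaks. That line had a peak of 657 bp ending 254 bp upstream of the start site (chr17:77751037-77751693) and the start-site peak beginning 33 bp downstream of it, with a gap of 286 bp between them. In RS4;11 cells the peak began 9 bp upstream of the start site, and no peak farther upstream was assigned to CBX2. With peaks closer than 500 bp joined, the THP-1 peak was 2127 bp wide and wider than the RS4;11 peak. Upstream of the canonical CBX8 start site, both lines had a further peak, 633 bp wide in RS4;11 cells (chr17:77774139-77774771) and 1793 bp in THP-1 cells (chr17:77774127-77775919). The annotated 5′ end of CBX8, at chr17:77775482, was covered by this THP-1 peak, while the RS4;11 peak lay inside the gene and ended short of it. THP-1 cells had another peak at chr17:77777174-77778698.

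CBX7, the chromodomain protein best known for silencing the INK4A locus, was the member whose width differed most between the lines as a ratio, while EZH2 differed most in bp. It lies on the minus strand at chr22:39516172-39548685. The start-site peak was 1795 bp wide in RS4;11 cells (chr22:39547975-39549769) and 1145 bp in THP-1 cells (chr22:39548566-39549710), a ratio of 1.57. In THP-1 cells a second peak of 629 bp (chr22:39547790-39548418) followed after a gap of 147 bp, which is 83.0% GC, and the single RS4;11 peak spanned that gap. With peaks closer than 500 bp joined, the widths at CBX7 were 1795 bp in RS4;11 and 1921 bp in THP-1 cells, which turned the direction and ended the difference of 1.5 times. Both lines also had a peak in intron 2, 2442 bp in RS4;11 cells (chr22:39539983-39542424) and 2470 bp in THP-1 cells (chr22:39540006-39542475), wider than the start-site peak in each line. A peak of 589 bp downstream of the gene was listed in THP-1 cells only.

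The CBX7 promoter is shown because it holds the narrowest start-site peak of the members in THP-1 cells. It lies at chr22:39548656-39548935 on the minus strand of GRCh37 and is 78.9% GC with 47 CpGs, in capitals.
CBX7 promoter: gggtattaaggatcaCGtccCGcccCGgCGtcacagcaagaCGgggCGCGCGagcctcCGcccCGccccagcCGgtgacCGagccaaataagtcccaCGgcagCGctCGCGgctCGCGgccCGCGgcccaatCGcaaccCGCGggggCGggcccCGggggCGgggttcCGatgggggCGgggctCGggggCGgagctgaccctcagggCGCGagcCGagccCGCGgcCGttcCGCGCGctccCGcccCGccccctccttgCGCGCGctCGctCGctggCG

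Over the 10 genes, the lines had the same total of peaks, while most genes differed in their own number. RS4;11 cells had 24 distinct peaks at the members and THP-1 cells 24, with a median of 3 peaks per gene in each line, where the median over all listed symbols was 2 (quartiles 1 and 3). RS4;11 cells had more peaks at EZH2, SUZ12, EED and BMI1, and THP-1 cells at RNF2, CBX2, CBX7 and CBX8, while EZH1 had 3 in each line and RING1 none. With peaks closer than 500 bp joined, the totals were 23 in RS4;11 and 22 in THP-1 cells. The numbers at SUZ12 in RS4;11 cells and at CBX2, CBX7 and CBX8 in THP-1 cells include such close pairs. With its pair joined, SUZ12 had equal numbers in both lines. The RS4;11 peaks counted at BMI1 all lay outside the gene, while a THP-1 peak lay inside it. The peaks of CBX2 and CBX8 are the same ones. Counting a peak once for each member it was assigned to gave 27 pairs in RS4;11 cells, of which 8 were start-site peaks, 5 lay in exons or introns, 5 upstream and 9 downstream. The 29 pairs in THP-1 cells were 7 at start sites, 7 in exons or introns, 6 upstream and 9 downstream. Of the 24 peaks in each line, 15 in RS4;11 and 16 in THP-1 cells overlapped a peak of the other line, as did 55.8% and 51.8% of all H3K4me3 peaks of these lines.

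**Figure D3:**
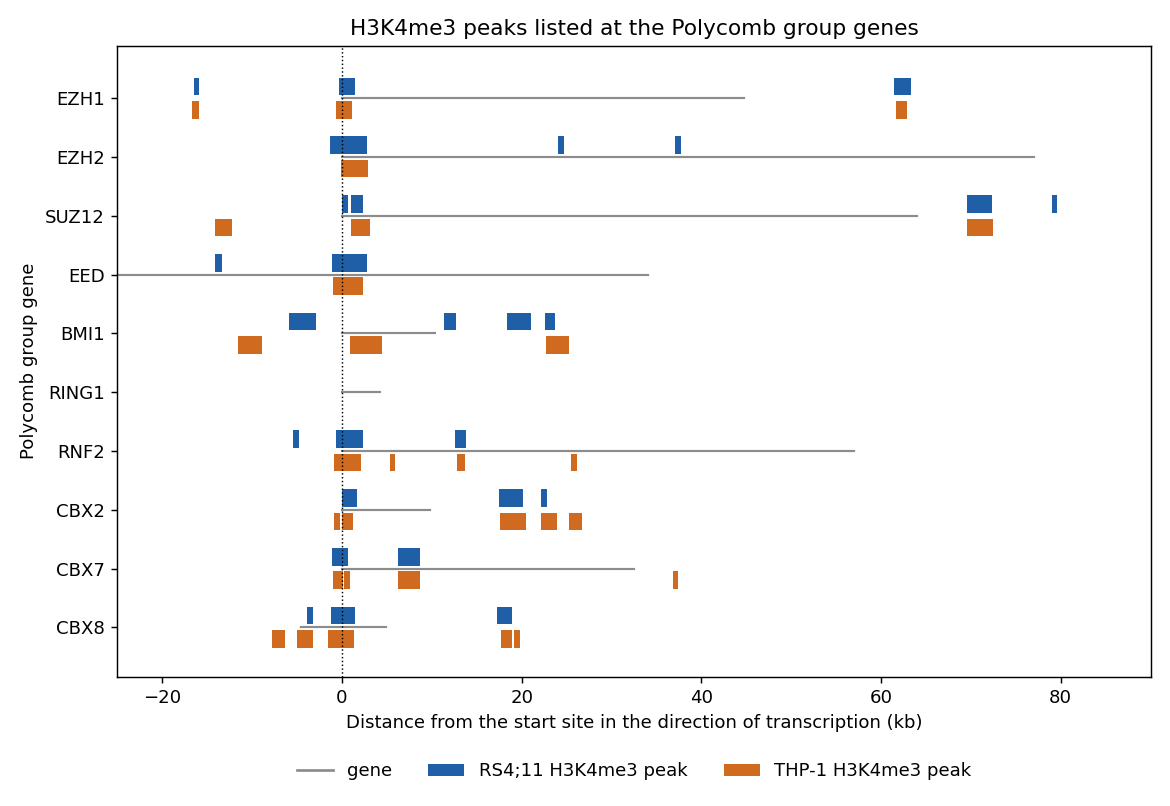
H3K4me3 peaks assigned to each gene, with distance from the start site in kb along the direction of transcription. RS4;11 peaks are blue, THP-1 peaks are orange and the grey line is the annotated gene, which for EED extends past the left edge. The flanking peaks of EZH1 line up between the lines, while those of BMI1 overlap only at the far right.

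**Figure D4:**
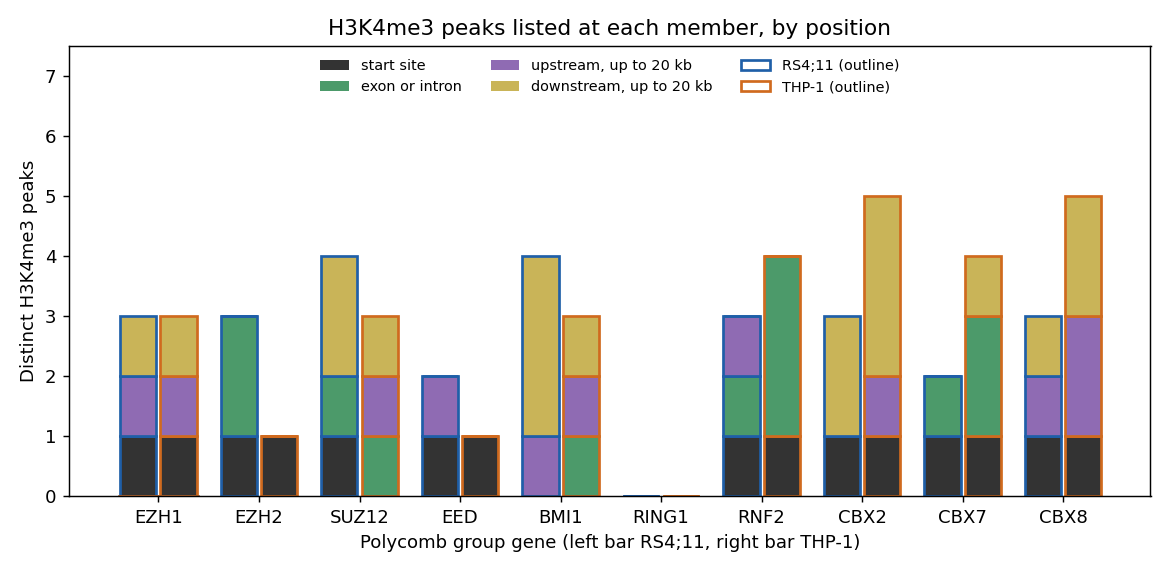
Number of distinct H3K4me3 peaks assigned to each gene, divided by position. The left bar of each pair is RS4;11 and the right bar THP-1, and a peak shared by CBX2 and CBX8 is drawn at both. The bars run from 0 at RING1 to 5 at CBX2 and CBX8 in THP-1 cells.

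By the median, the start-site peaks of the members extended farther into the gene than away from it, as those of all genes did. CBX7 was an exception in both lines, reaching 1084 bp upstream and 710 bp downstream in RS4;11 cells, and 1025 and 119 bp in THP-1 cells. CBX8 was another in THP-1 cells, with 1574 and 1305 bp. The median reach over the members was 889.5 bp upstream and 1540.5 bp downstream in RS4;11 cells, and 855 and 1305 bp in THP-1 cells. Over all genes with a start-site peak the medians were 967.5 and 1490 bp in RS4;11 cells, and 863 and 1421 bp in THP-1 cells. The peak covered the start site itself at all 8 members called in RS4;11 and at 6 of the 7 in THP-1, CBX2 being the exception, where it did so at 96.9% and 90.9% of all genes with a start-site peak.

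BMI1 and RING1, the members without a start-site peak in either line, lay within the GC range of the members that had one. Over 500 bp to each side of the start site, GC content was lowest at EED (56.0%) and highest at CBX2 (79.5%), and both had a peak in both lines. BMI1 at 75.5% and RING1 at 68.6% had none, and both lay above the median of 61.2% over 20144 protein-coding genes. RING1 lies in the 0.76 Mb stretch without a listed peak, and BMI1 had a THP-1 peak at another protein-coding start. SUZ12 was at 66.1%. Over all genes, the share with a start-site peak was 6.67% in RS4;11 and 8.80% in THP-1 cells below 40% GC, and 62.0% and 75.6% from 70% GC on. BMI1 was thus without a peak at its canonical start site in the class where most genes had one. Whether GC content bears on the missing peaks was not tested.

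**Figure D5:**
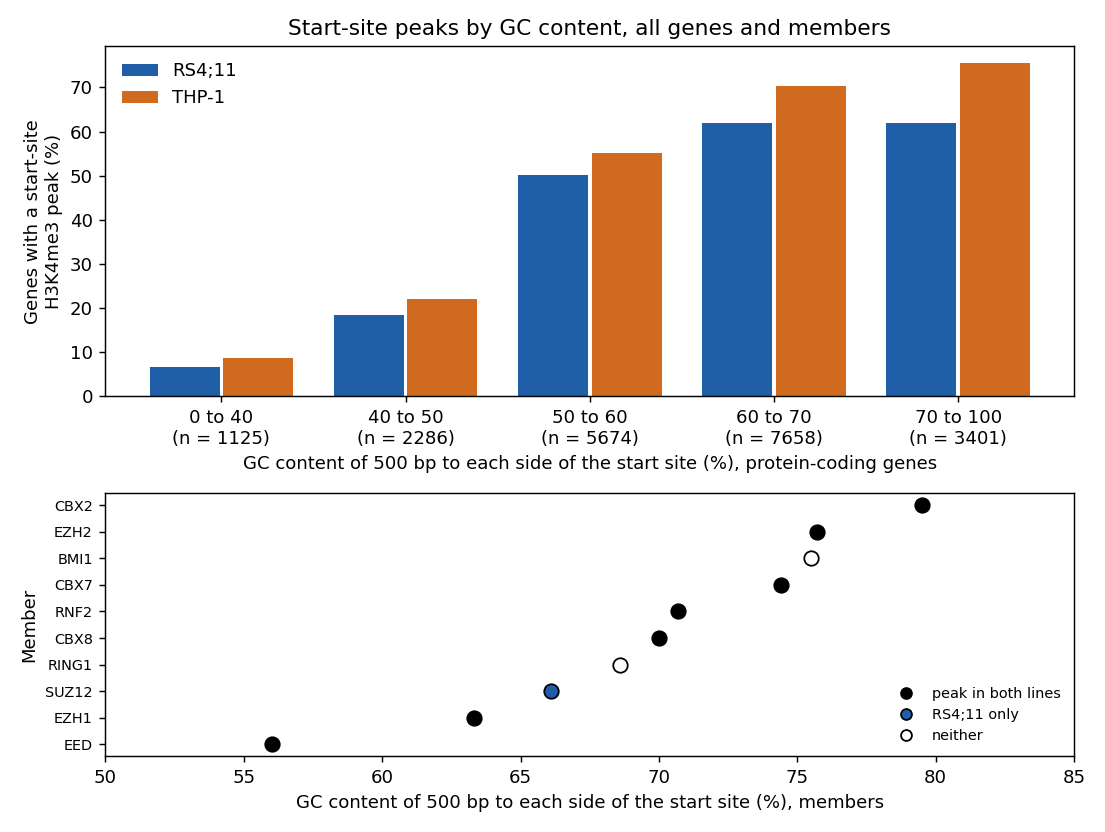
Top, percent of protein-coding genes with a start-site H3K4me3 peak by GC content of 500 bp to each side of the start site, in RS4;11 (blue) and THP-1 (orange), with the number of genes in each class. Bottom, the GC content of each member, filled black for a peak in both lines, blue for RS4;11 only and white for neither; BMI1, at 75.5%, is white among members that have a peak.

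The promoters were also searched for 3 short motifs on both strands, from 250 bases before to 49 after the start site. The E2F motif, in the forms TTTCCCGC, TTTCGCGC, TTTGCCGC and TTTGGCGC, was found in 4.33% of promoters and in 3 of the 10 members, all of them PRC2 genes. E2F factors drive genes of the S phase. The 3 matches, in capitals with 6 bases to each side on the gene's strand, lie 115 to 108 bases upstream of the start site in EZH1 (read on the opposite strand), 1 to 8 bases downstream of it in EZH2, and 189 to 182 bases upstream in SUZ12.
EZH1 E2F match: gttttgGCGGCAAAtgacag
EZH2 E2F match: gccgcgTTTGGCGCtcggtc
SUZ12 E2F match: cctaatTTTCCCGCgaattc
The ETS motif CCGGAAG (14.0% of promoters) and the YY1 motif AAGATGGCG (2.81%) had no match in the 10 windows. These motifs do not overlap one another in the members. A match describes letters in this window and says nothing of binding in these cells.

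No WDR5 peak was assigned to a Polycomb group gene in either line. The WDR5 list of RS4;11 cells holds 873 symbols (4.70% of the 18576) and that of THP-1 cells 316 (1.70%), and none of the 10 members was among them. None of the H3K4me3 peaks of the members was overlapped by a WDR5 peak of the same line. With 703 WDR5 peaks against 24212 H3K4me3 peaks in RS4;11 cells and 225 against 26523 in THP-1 cells, few H3K4me3 peaks could be overlapped. Beside symbol shares and WDR5 peak numbers this low, a count of 0 among 10 genes or their peaks is read as a description only.

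The WDR5 peak nearest to a member was near EED in RS4;11 cells. It was 462 bp wide (chr11:86013249-86013710), 57454 bp from the EED start site and 23394 bp past the end of the gene, and it was assigned to C11orf73. It covered the start site of that gene, now named HIKESHI, and lay inside an H3K4me3 peak of the same line at chr11:86012531-86014985. The nearest WDR5 peaks of the other 9 members lay from 0.28 Mb (SUZ12) to 4.27 Mb (RNF2) from the start site in RS4;11 cells. In THP-1 cells, the distances ran from 0.48 Mb (EZH1) to 19.73 Mb (CBX8).

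The 30 other Polycomb genes were all listed for H3K4me3 in both lines. They comprised partners of PRC2 and PRC1, the H2A deubiquitinase BAP1 with its ASXL partners, and the DNA-binding factor YY1. A start-site peak was found at 19 (63.3%) in RS4;11 and 17 (56.7%) in THP-1 cells, 15 of them in both lines. Over all protein-coding genes the shares were 50.6% and 58.0%, and 45.3% in both lines. PHF1 had no start-site peak in either line, and its start site lies in the stretch without a listed peak around RING1. RBBP7, CBX6, PCGF2 and BAP1 had one in RS4;11 cells only, and ASXL1 and YY1 in THP-1 cells only. The median width of these peaks was 3121 bp in RS4;11 and 2333 bp in THP-1 cells. Among these 30 genes, WDR5 was listed at 2 in RS4;11 cells and at none in THP-1 cells. Of all 18576 symbols, 4.70% and 1.70% were listed for WDR5 in these lines, so the counts are read as a description only. At L3MBTL2, a partner of PRC1, a WDR5 peak of 271 bp (chr22:41600850-41601120) lay 466 to 196 bp upstream of the start site and inside an H3K4me3 peak. At RBBP4, a histone-binding subunit of PRC2, a WDR5 peak (chr1:33110549-33111077) lay 6260 to 5732 bp upstream without an overlapping H3K4me3 peak. That WDR5 peak was flagged only as within 20 kb upstream of RBBP4, and it was also assigned to ZBTB8OS.

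Of 12 genes for the H3K4 methyltransferase complexes, which write H3K4me3, 8 (66.7%) had a start-site peak in RS4;11 and 9 (75.0%) in THP-1 cells. WDR5 itself had one of 3300 bp in RS4;11 and 1769 bp in THP-1 cells. KMT2A, the MLL gene, had one in THP-1 cells only (2466 bp, 188 bp from the start site at its near edge), as did SETD1B (3542 bp). ASH2L had one in RS4;11 cells only (2819 bp), although a THP-1 peak lay at another of its protein-coding starts. A WDR5 peak was assigned to 1 gene of this list, KMT2C in RS4;11 cells (chr7:151967572-151968007), in intron 7 and without an overlapping H3K4me3 peak. Of all symbols, 4.70% were listed for WDR5 in RS4;11 and 1.70% in THP-1 cells. The members, with 8 and 7 of 10, and both of these lists thus lay from 63.3% to 80.0% in RS4;11 cells. They lay from 56.7% to 75.0% in THP-1 cells. Over all protein-coding genes the shares were 50.6% and 58.0%. The other Polycomb genes, with 17 of 30 (56.7%), lay close to the share of all genes in THP-1 cells. With 1 sample for each line no test was made between them.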

How the data were processed

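WDR5 and H3K4me3 ChIP-seq of RS4;11 and THP-1 cells was analysed, with 1 sample each, grouped by the line and antibody in the labels. According to the methods, the authors sonicated the chromatin for WDR5 and digested that for H3K4me3 with micrococcal nuclease (the labels name sonication), aligned reads to hg19 with Eland (at most 2 mismatches, unique alignments), and called peaks with MACS at default parameters. CASAVA 1.7 and 1.8.2 are named in the submitters' processing notes. The MACS version and an input control are not given in the sources used here. The deposited files hold other values than measurements of strength: the position of a peak beside each transcript near it, with flags (yes or no) for where it lies. Depth is therefore unknown and no interval is given.

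Lines were reduced to distinct peaks (width is end minus start plus 1) and joined to GENCODE release 44 on GRCh37 with Python 3.11.15. No peak ran past the end of a chromosome. The join was checked on simulated peaks. The start site was that of the canonical transcript, and overlap meant at least 1 bp. For base composition, 19 start sites in masked sequence were left out. The members, lists and motifs were chosen with earlier results of these data known. All members are named. The genes named beside them share a peak with one, or are other Polycomb genes with a WDR5 peak or a start-site peak in 1 line only. HIKESHI, ZBTB8OS, PHF1, the H3K4 methyltransferase genes and the marker genes were named after their values were seen. Promoters were shown for members with the widest or narrowest start-site peak or one in 1 line only, and for BMI1, chosen after its values were seen. Some items are not reported here.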

Additional observations from a re-analysis of the deposited data

How the results depend on the processing

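Of 28 alternative values, 25 stayed within 1.5 times the reported one. Some of these had little room to move. The WDR5 count with an exon or intron flag could only stay at 0, and 8 or 7 called members among 10 could not rise 1.5 times. The tally is therefore no measure of how firm the results are. Counting only peaks with an exon or intron flag lowered the members' peaks from 24 to 13 in RS4;11 cells and from 24 to 13 in THP-1 cells. Counting WDR5 peaks within 50 kb of the gene raised the count from 0 to 1 in RS4;11 cells, at EED. The number of members with a start-site peak ran from 6 to 8 in RS4;11 cells, the lowest being with the 5′ end of the gene as start site. In THP-1 cells it ran from 6 to 9, the highest being with a window of 1000 bp, chosen after seeing the data, which takes in SUZ12 and BMI1. Joining peaks closer than 500 bp raised the median start-site width to 2520.5 bp in RS4;11 cells and turned the order of the lines at CBX2 and CBX7, where the THP-1 peak became the wider. No paired analysis was possible because each antibody and line had 1 sample. Without peak heights, a weak peak cannot be told apart from a strong one.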
